A study of Homo sapiens with 12 samples.

Results

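RNA levels after TNFα were compared between NFKB1 S80A cells and WT cells, with the question of which functions differed among genes that respond to TNFα and among genes that barely respond to it. Both lines are HEK293T, a human embryonic kidney line with an abnormal number of chromosomes that grows readily and takes up DNA well. The 6 samples compared are 3 of WT cells and 3 of NFKB1 S80A cells, each after 3 h with TNFα at 10 ng/ml. The untreated groups, 3 samples of WT cells and 3 of NFKB1 S80A cells at 0 h without TNFα, served to class genes by their response and to give the genotype difference without the cytokine. Of 33121 genes in the count table, 33093 were kept after 28 with names turned into dates were left out. Of those kept, 22051 had at least 1 count and 14383 passed a filter on low counts and were tested. S80A cells were made by CRISPR editing with a repair oligonucleotide and grown from single cells, and the number of clones behind the 3 samples is not given. A difference of genotype and a difference between clones therefore cannot be told apart. The authors describe the replicates as generated independently, but the labels do not say whether they were separate cultures, so the p-values measure the spread between these samples.

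NFKB1 encodes p105, which is processed to p50, a subunit of the NF-κB transcription factors. TNFα binding to its receptor activates the IKK kinases, inhibitory IκB proteins are degraded, and freed dimers such as p50 with RELA enter the nucleus and bind κB sites in chromatin. Their targets include chemokines and cytokines, and also IκBα and A20, which switch the pathway off again.

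The edited residue is serine 80 of the 968 residues of p105, replaced by alanine in S80A cells, counted in the form of the protein with serine at that place. Its codon lies in exon 5, in the coding sequence, at bases 102537939 to 102537941 of chromosome 4 on the plus strand of GRCh38. The reference sequence of chr4:102537909-102537956 is shown because it holds the edited site. Its capitals mark the serine codon, and the repair oligonucleotide was designed to alter neighbouring codons silently too.
NFKB1 codon 80: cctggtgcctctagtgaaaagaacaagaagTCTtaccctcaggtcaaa

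The total counts were 17916964, 19120630 and 19316503 in treated WT samples n1 to n3. They were 20186645, 15624878 and 17436444 in treated S80A samples n1 to n3, so the genotypes overlapped in depth. The label of the cell line was checked with marker genes. Of 8 genes of the HEK293 lineage, 5 had at least 10 counts in all 12 samples, with VIM, an intermediate filament of mesenchymal cells, the most abundant at 10059 to 15699 counts. The summed counts of these 8 genes were 18408 to 19320 in treated WT samples and 15150 to 20922 in treated S80A samples. Fibroblast markers summed to 275 to 322 counts in treated WT samples and 151 to 154 in treated S80A samples, most of it COL1A1, with COL1A2 and DCN at or near 0. Among leukocyte markers, PTPRC and CD3E had no counts in any sample. Endothelial markers, of which KDR was the most abundant, summed to 2 to 7 counts in treated WT samples and 3 to 7 in treated S80A samples. Hepatocyte markers, led by APOA1, summed to at most 4 counts in each treated sample. Most markers of other cell types were thus at or near 0, with COL1A1 the clearest exception and COL3A1 and PDGFRA at low levels. In bulk samples fewer cells of one type and less RNA per cell cannot be told apart.

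The edited gene itself was induced by TNFα. NFKB1 had normalised counts (counts scaled to a common library size) of 2540, 2298 and 2508 in treated WT samples and 3198, 2803 and 2545 in treated S80A samples. The lowest S80A sample lay just above the highest WT sample. The log2 fold change of S80A over WT was 0.22 (SE 0.10), and the gene was not called (edgeR quasi-likelihood, Benjamini-Hochberg adjusted p = 0.198). This level was not used to check the genotype labels.

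After TNFα, 1058 of 14383 genes (7.36%) differed between the genotypes at an adjusted p under 0.05. Of these, 420 (2.92%) were higher in S80A cells and 638 (4.44%) were lower, and 205 of the 1058 had a log2 fold change of 1 or more in either direction. They included IL8, RELB and TNFAIP3 among the TNFα-responsive genes, all higher, and NEFM, SNAI2 and SPARC among the others, all lower. The count moved with single libraries. It was 501 without WT TNFα n1, 434 without WT TNFα n2, 515 without S80A TNFα n1, 612 without S80A TNFα n2, 604 without S80A TNFα n3 and 1646 without untreated S80A n2. The last library stood apart on the second principal component, at -39.0 beside 7.30 and -8.46 in its group, and the cause was not tested. The split was 133 higher and 301 lower without WT TNFα n2, and 663 higher and 983 lower without untreated S80A n2. No gene called both in the full fit and with 1 library left out changed its sign.

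Genes were classed by their response to TNFα averaged over the genotypes, a measure that does not by itself favour either direction of the genotype difference. In this response 312 genes (2.17%) passed, 195 induced and 117 reduced, and these are called TNFα-responsive. Another 12002 genes had a 95% interval of the averaged response within 1.5-fold either way and are called little-response genes. The remaining 2069 genes, mostly of low counts, are undetermined. Among the 312 responsive genes, 57 (18.3%) differed between treated genotypes, 39 higher (12.5%) and 18 lower (5.77%) in S80A cells. In DESeq2 432 genes were responsive, of which 62 were higher and 25 lower. With the replicate number as a block 397 were responsive, of which 71 were higher and 30 lower. Among the little-response genes 878 (7.32%) differed, 334 higher and 544 lower, close to the share over all tested genes. Among the undetermined genes 123 (5.94%) differed, 47 higher and 76 lower.

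More responsive genes were called higher than lower in S80A cells. Of 195 induced genes 26 were higher and 6 lower, with a median log2 fold change of 0.14 beside -0.00 over all tested genes. In the 61 genes induced by an averaged log2 response of at least 1, 19 were higher and 2 lower, and the median was 0.32. The 22 genes induced by at least 2 on that scale had a median of 0.70, and 13 of them were called higher. Of the 117 reduced genes 13 were higher and 12 lower, with a median of -0.02. Without chromosomes 3, 10, 13 and 17, which hold many lower calls, 12 were higher and 4 lower. Since these chromosomes were picked for their lower calls, leaving them out removes mostly lower calls by construction. Induced and reduced genes were not tested against each other. The 57 calls fell to 34 without WT TNFα n1, 26 without WT TNFα n2, 28 without S80A TNFα n1, 35 without S80A TNFα n2, 34 without S80A TNFα n3 and 32 without untreated WT n2, and rose to 90 without untreated S80A n2. In all of these fits more responsive genes were called higher than lower. For little-response genes the 878 calls became 378, 334, 400, 477 and 473 without WT TNFα n1, WT TNFα n2 and S80A TNFα n1, n2 and n3, and 1392 without untreated S80A n2. Of the 57 responsive genes called, 28 passed in every fit that left out 1 of the 12 samples, 17 of them higher and 11 lower.

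Among the NF-κB subunits, all 5 of which responded to TNFα, 1 was called higher in treated S80A cells. RELB, a subunit that pairs mainly with p52 or p50, had normalised counts of 883, 754 and 884 in treated WT samples and 1395, 1117 and 1222 in treated S80A samples. Untreated samples had 21.5 to 29.5 in both genotypes, so the gap appears on top of an induction of more than an order of magnitude. The groups did not overlap after TNFα, and the log2 fold change was 0.57 (SE 0.10, edgeR adjusted p = 0.00401). NFKB2, the precursor of p52, lay at 1791, 1636 and 1834 in WT and 2249, 2006 and 2009 in S80A samples, again without overlap, but at an edgeR adjusted p of 0.0734 it was not called (log2 fold change 0.25, SE 0.08). RELA and REL had log2 fold changes of 0.03 (SE 0.07) and -0.05 (SE 0.37), and their groups overlapped. Without untreated S80A n2, 2 of the 5 subunits were called.

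Among the feedback inhibitors of the pathway, 2 genes were called. TNFAIP3 encodes A20, an enzyme that edits ubiquitin chains and ends TNF receptor signalling. Its normalised counts were 1109, 927 and 862 in treated WT samples and 1780, 1462 and 1408 in treated S80A samples. All 3 S80A samples lay above all 3 WT samples, with a log2 fold change of 0.68 (SE 0.12, edgeR adjusted p = 0.00422), whereas untreated values were 93.6 to 124 in both genotypes. NFKBIA, which encodes IκBα, had 5408, 5165 and 4531 in WT and 7156, 6200 and 6471 in S80A samples. These groups were also apart (log2 fold change 0.39, SE 0.09, edgeR adjusted p = 0.0128), but the call was lost without S80A TNFα n1, at an adjusted p of 0.0705. NFKBIA was 1 of 6 IκB family members tested and the one that was called, while TNFAIP3 was 1 of 9 ubiquitin brakes. In the IκB family there were 0 calls without S80A TNFα n1 and 2 without untreated S80A n2, and without WT TNFα n3 there were 2 among the ubiquitin brakes. CYLD, another deubiquitinase that restrains the pathway, responded to TNFα but overlapped between genotypes (log2 fold change -0.04, SE 0.08). IER3, an induced gene linked to cell survival, also overlapped, with 987, 830 and 959 in WT and 1069, 919 and 997 in S80A samples.

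Among the induced genes called higher, the chemokine IL8 and the cytokine TNF had the largest rises. In the list of chemokines and cytokines, of 15 tested members 7 were higher and 1 lower in treated S80A cells, with a median log2 fold change of 0.76. Together 53.3% were called, beside 7.36% over all tested genes. Without WT TNFα n2 the number higher was 2, without WT TNFα n3 it was 4, and without S80A TNFα n1 and n2 it was 3 and 4. IL8, the neutrophil chemokine now named CXCL8, had normalised counts of 47.7, 44.4 and 34.3 in treated WT samples and 221, 134 and 172 in treated S80A samples. Its untreated values did not exceed 1.79 in WT and 6.49 in S80A samples. After TNFα every S80A sample was far above every WT sample, with a log2 fold change of 2.06 (SE 0.24, edgeR adjusted p = 0.000136), and the call held in each fit with 1 sample left out. TNF, the cytokine's own gene, read 27.0, 13.8 and 17.6 in WT and 56.1, 51.9 and 61.2 in S80A samples. The groups were apart (log2 fold change 1.53, SE 0.29, edgeR adjusted p = 0.00789), although without WT TNFα n2 the adjusted p was 0.0505.

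The neighbouring CXC chemokine genes were higher as well, with calls that depended on single libraries. CXCL1, which also draws neutrophils, had 70.6, 45.4 and 50.9 in treated WT samples and 168, 120 and 93.4 in treated S80A samples (log2 fold change 1.20, SE 0.27, edgeR adjusted p = 0.0141). Its groups did not overlap, but the adjusted p was 0.0831 without WT TNFα n2 and 0.0781 without S80A TNFα n1. CXCL2 had a log2 fold change of 1.15 (SE 0.29), and its adjusted p of 0.0297 rose to 0.113 and 0.0775 without WT TNFα n2 and n3 and to 0.137 and 0.0581 without S80A TNFα n1 and n2. CXCL1, CXCL2 and CXCL3 are close copies that may share reads, which was not measured, so their separate values are uncertain. CXCL12 and CXCL16 were not classed as TNFα-responsive. CXCL16 had little response, and that of CXCL12 was undetermined. CXCL12, a chemokine for progenitor cells and lymphocytes, was higher at 98.5, 134 and 152 in S80A beside 52.9, 67.2 and 69.5 in WT samples. CXCL16, a membrane-bound chemokine and scavenger receptor, was lower at 76.0, 106 and 86.9 beside 176, 171 and 152, a log2 fold change of -0.90 (SE 0.14, edgeR adjusted p = 0.00216).

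Immediate early genes, transcribed within minutes of a stimulus, included 6 higher and 1 lower of 22 tested, with a median log2 fold change of 0.33. Together 31.8% were called, beside 7.36% over all tested genes. JUNB, a subunit of the AP-1 factor, had 520, 477 and 504 in treated WT samples and 867, 677 and 735 in treated S80A samples. The groups were apart (log2 fold change 0.60, SE 0.11, edgeR adjusted p = 0.00447), and the untreated values of 125 to 159 were not. JUND, a related subunit, was higher both after TNFα (log2 fold change 0.54, SE 0.10, edgeR adjusted p = 0.00601) and without it (0.47). PPP1R15A, which directs a phosphatase to restart translation after stress, had 670, 615 and 654 in WT and 1009, 865 and 892 in S80A samples, again without overlap (log2 fold change 0.51, SE 0.09, edgeR adjusted p = 0.00268). JUN itself was induced but overlapped between genotypes, with 5965, 5648 and 6860 in WT and 5929, 6306 and 6502 in S80A samples. MYC, a growth regulator with little response here, was the member called lower, at 2063, 2164 and 2171 in S80A beside 2798, 2681 and 2900 in WT samples (log2 fold change -0.39, SE 0.06, edgeR adjusted p = 0.00249).

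Other induced genes that were higher in treated S80A cells have separate functions. PLAT and PLAU encode the tissue and urokinase plasminogen activators, proteases that start fibrin breakdown. PLAT had normalised counts of 1016, 764 and 846 in treated WT samples and 2152, 1541 and 1594 in treated S80A samples (log2 fold change 1.01, SE 0.16, edgeR adjusted p = 0.00219). PLAU had 40.5, 32.6 and 35.2 in WT and 104, 81.4 and 68.7 in S80A samples (log2 fold change 1.24, SE 0.22, edgeR adjusted p = 0.00446). Neither gene overlapped between the treated groups, and PLAT was also higher in untreated S80A cells (log2 fold change 0.72, edgeR adjusted p = 0.0198). EFNA1, a membrane-anchored ligand of EPH receptors, had 396, 292 and 317 in WT and 764, 536 and 559 in S80A samples. Its groups were apart after TNFα (log2 fold change 0.89, SE 0.15, edgeR adjusted p = 0.00248) and overlapped without it, at 105 to 133. PDPN, a mucin-like membrane glycoprotein, was higher at 1338, 1352 and 1284 in S80A beside 849, 948 and 905 in WT samples (log2 fold change 0.56, SE 0.10, edgeR adjusted p = 0.0033). SGPP2, a phosphatase of the lipid messenger sphingosine 1-phosphate, stood at 121, 90.9 and 105 in WT and 446, 203 and 197 in S80A samples, with S80A TNFα n1 far above the rest (log2 fold change 1.43, SE 0.27, edgeR adjusted p = 0.00507).

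**Figure D1:**
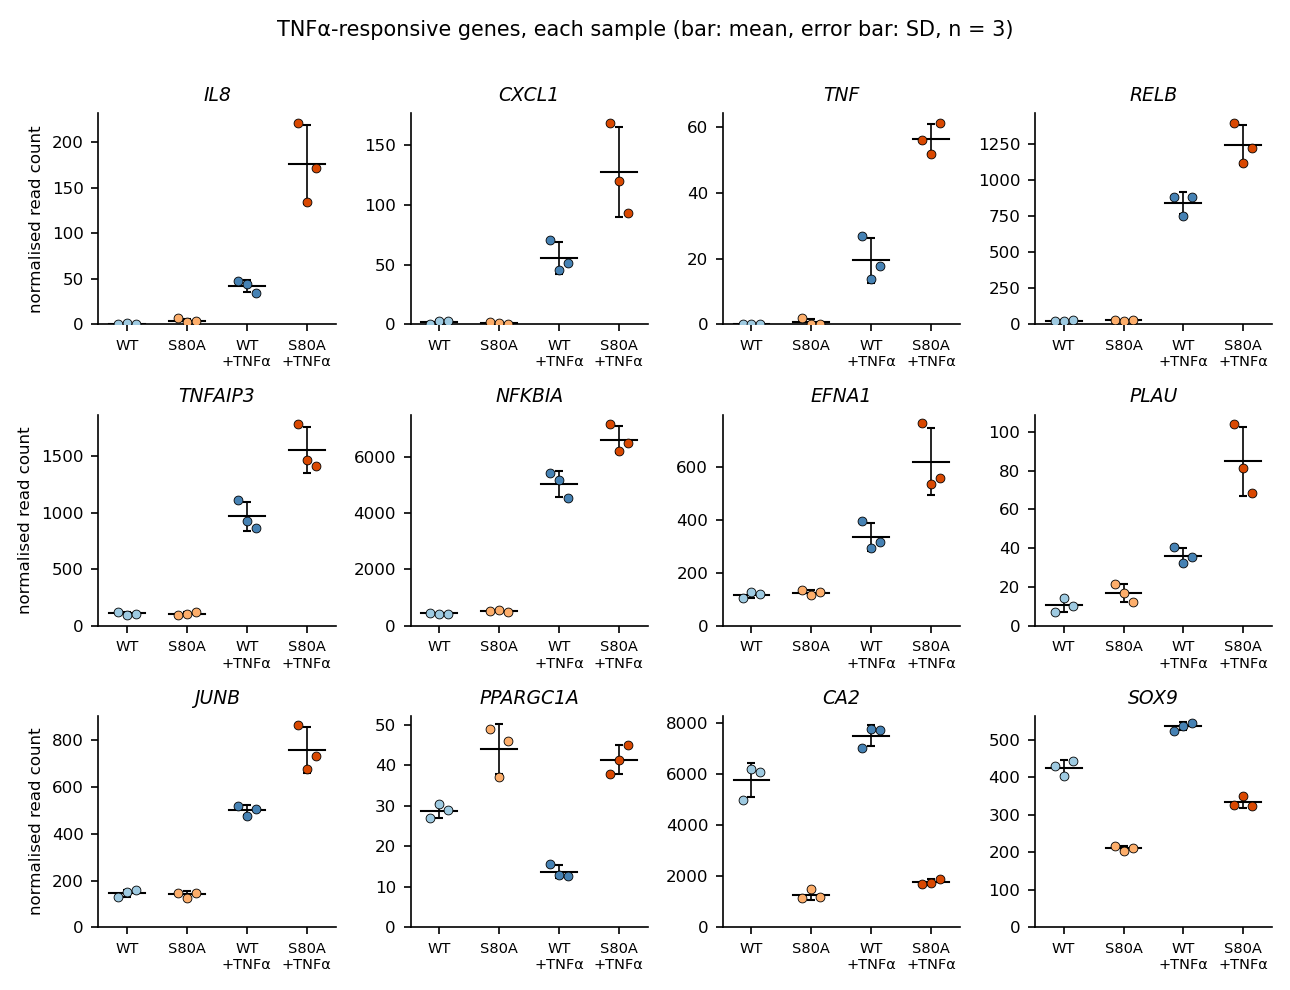
Normalised read counts of 12 TNFα-responsive genes in each of the 12 samples (points), with the mean of each group as a line and the SD as an error bar (n = 3). IL8, RELB and TNFAIP3 lie close together in untreated cells and apart after TNFα, whereas CA2 and SOX9 are lower in S80A cells in both states.

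Some genes were reduced by TNFα and yet higher in treated S80A cells. PPARGC1A, a coactivator of mitochondrial biogenesis, had 15.6, 12.8 and 12.7 in treated WT samples and 38.0, 41.3 and 45.1 in treated S80A samples. The groups were far apart (log2 fold change 1.59, SE 0.21, edgeR adjusted p = 0.00046). In WT cells the level dropped from 26.9, 30.4 and 28.9, a log2 response of -1.07, while in S80A cells it lay at 49.1, 37.2 and 46.0 before treatment, a log2 response of -0.10. The interaction of genotype and TNFα for PPARGC1A was 0.96 (SE 0.28), with an edgeR adjusted p of 0.911, so these responses were not shown to differ. CDKN2C, an inhibitor of the cell cycle kinases CDK4 and CDK6, was higher at 1370, 1510 and 1797 in S80A beside 982, 1019 and 1078 in WT samples (log2 fold change 0.60, SE 0.10, edgeR adjusted p = 0.00214). MAF, a basic leucine zipper factor, had a log2 fold change of 0.73 (SE 0.13, edgeR adjusted p = 0.00373), and RXRA, the partner of many nuclear receptors, one of 0.44 (SE 0.08, edgeR adjusted p = 0.00453). CDKN2C and MAF were also called higher in untreated S80A cells, with log2 fold changes of 0.62 and 0.94. The uncharacterised transcript LOC101928230 was higher in both states as well, with log2 fold changes of 1.28 and 1.00.

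The responsive genes that were lower in S80A cells were mostly lower before treatment too. CA2, carbonic anhydrase 2, which interconverts carbon dioxide and bicarbonate, had 7017, 7768 and 7734 in treated WT samples and 1683, 1735 and 1889 in treated S80A samples. This is a log2 fold change of -2.08 (SE 0.11, edgeR adjusted p = 5.08e-08), beside -2.19 without TNFα. Both genotypes raised CA2, by log2 responses of 0.38 and 0.48, from different starting levels. SOX9, a transcription factor of cartilage and kidney development, lay at 524, 537 and 545 in WT and 326, 349 and 324 in S80A samples (log2 fold change -0.69, SE 0.08, edgeR adjusted p = 0.000222). MAP2K6, a kinase that activates p38, had 215, 219 and 249 in WT and 94.0, 118 and 124 in S80A samples (log2 fold change -1.03, SE 0.14, edgeR adjusted p = 0.000446). None of these genes overlapped between genotypes after TNFα. MOB3C, a member of the MOB kinase adaptor family, was lower at 28.9, 29.5 and 26.8 beside 68.5, 55.3 and 66.6 in WT samples (log2 fold change -1.16, SE 0.19, edgeR adjusted p = 0.00242). MSX1, a homeobox factor, was induced in both genotypes and lower in S80A cells (log2 fold change -0.60, SE 0.10, edgeR adjusted p = 0.00296). Among the 18 responsive genes called lower, 10 were also called lower in untreated cells.

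Interferon-stimulated genes, which serve antiviral defence, had a median near 0 as a list, though single members were lower. Of 24 tested members 5 were lower and 1 higher in treated S80A cells (25% called, beside 7.36% over all tested genes). Another 18 were not called, 12 of the 24 had a positive log2 fold change and the median was -0.03. The higher call was lost without untreated WT n2 or n3, WT TNFα n1 or n2, untreated S80A n3 or S80A TNFα n2 or n3, each fit having 0 higher, and the number lower was 4 or 5 in all fits. IFIT1, which binds viral RNA, had 73.7, 66.2 and 67.5 in treated WT samples and 31.6, 34.2 and 37.6 in treated S80A samples. IFIT1 was reduced by TNFα in both genotypes and its groups did not overlap, with a level 2.01-fold lower in S80A cells (SE of the log2 fold change 0.15, edgeR adjusted p = 0.00154). IFIT5, a relative of IFIT1 with little response to TNFα, had 462, 448 and 430 in WT and 290, 262 and 268 in S80A samples (log2 fold change -0.71, SE 0.10, edgeR adjusted p = 0.000486). IFITM2, a membrane protein that hinders viral entry, lay at 157, 181 and 203 in WT and 85.9, 96.7 and 96.6 in S80A samples (log2 fold change -0.95, SE 0.15, edgeR adjusted p = 0.00151). IRF7, a master factor of interferon transcription, had 24, 18 and 34 raw counts in WT and 5, 0 and 1 in S80A samples, so that most of the S80A counts come from S80A TNFα n1. Among treated samples it reached the low-count filter's minimum of 10 counts in WT cells alone, so the filter favoured a lower call.

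Promoter sequences were compared because some of the induced genes that were higher in S80A cells are known NF-κB targets. Windows from 250 bases before to 50 bases after the start of each gene were taken from RefSeq (GRCh38.p14) and searched on both strands for GGNNTTTCC, part of the κB site. The motif was in 1710 of 27305 promoters (6.26%). It was in 12 of 36 promoters of responsive genes called higher (33.3%), in 2 of 13 of those called lower (15.4%) and in 29 of 198 of those not called (14.6%). Among induced genes alone, it was in 11 of 24 called higher (45.8%), in 2 of 3 called lower (66.7%) and in 29 of 129 not called (22.5%). With the κB consensus in place of this motif, the shares were 37.5% of 24, 100% of the 3 and 31% of 129, beside 5.72% of all promoters. Little-response genes had the first motif in 9.62% of promoters when called higher and in 6.11% when called lower. These shares are descriptions: a match is not shown to be a bound site, and its absence says only that these letters are not in the window.

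For 4 induced genes higher in S80A cells and for MOB3C, which was lower, a match is shown in the direction of each gene, with the match in capitals. The genes were chosen after the matches were seen. The stretches shown lie at chr4:73740463-73740501 (IL8), chr4:73869300-73869338 (CXCL1) and chr19:48872241-48872279 (PPP1R15A), and these genes are on the plus strand. Those of NFKBIA, at chr14:35404807-35404845, and MOB3C, at chr1:46616947-46616985, belong to genes on the minus strand. In NFKBIA and PPP1R15A the motif reads on the strand opposite to the gene. The IL8 match ends 83 bases before the start of transcription. CXCL1 has matches that end 70 and 45 bases before the start, of which the first is shown, and NFKBIA has matches that end 234 and 73 bases before it, of which the second is shown.
IL8: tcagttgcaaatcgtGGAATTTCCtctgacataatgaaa
CXCL1: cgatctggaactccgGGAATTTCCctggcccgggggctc
NFKBIA: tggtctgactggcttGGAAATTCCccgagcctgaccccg
PPP1R15A: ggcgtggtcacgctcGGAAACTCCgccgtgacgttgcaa
MOB3C: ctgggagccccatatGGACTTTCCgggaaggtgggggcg

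Genes with little or no determined response to TNFα made up most of the calls, and several had fold changes above those of the NF-κB targets. NEFM, the middle neurofilament chain and one of the lineage markers of this cell line, had 2165, 1924 and 2145 raw counts in treated WT samples and 3, 3 and 5 in treated S80A samples. Scaled to depth, this is 546-fold higher in WT cells, with a 95% counting interval of 305 to 1.09e+03. The same gap was present without TNFα, where NEFM had normalised counts of 1709 to 1975 in WT and 2.78 to 7.21 in S80A samples. Intervals and floors of this kind cover counting error only. KRT18, a keratin of simple epithelia, was higher in S80A cells at 987, 847 and 1018 beside 578, 614 and 695 in WT samples (log2 fold change 0.60, SE 0.11, edgeR adjusted p = 0.00471).

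SNAI2, a transcriptional repressor of epithelial genes, had normalised counts of 508, 438 and 409 in treated WT samples and 71.4, 31.9 and 49.4 in treated S80A samples. ESRP2, a splicing factor of epithelial cells, had 191, 158 and 216 in WT and 26.2, 26.0 and 18.2 in S80A samples. Their log2 fold changes were -3.12 (SE 0.23, edgeR adjusted p = 1.71e-06) and -3.00 (SE 0.26, edgeR adjusted p = 7.8e-06). Both genes were named under a rule that required groups without overlap. CDH1, the cadherin of epithelial junctions, was lower at 28.9, 48.4 and 38.6 beside 71.6, 113 and 99.8 in WT samples (log2 fold change -1.31, SE 0.25, edgeR adjusted p = 0.00585). CDH2, the neural cadherin, was higher at 2559, 2776 and 2440 beside 1804, 2040 and 1831 (log2 fold change 0.45, SE 0.07, edgeR adjusted p = 0.00258). CDH1 and CDH2 were the members called among 7 cadherins tested (28.6%, beside 7.36% over all tested genes). MARVELD2, a protein of tricellular junctions, had 134, 111 and 135 raw counts in WT and 3, 1 and 4 in S80A samples, a 45.7-fold ratio of WT over S80A (95% counting interval 23 to 107).

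Of 37 extracellular matrix genes 5 were higher and 5 lower, and of 25 matrix proteases and their inhibitors 4 were higher, PLAT and PLAU among them, and 1 lower. These are 27% and 20% of members called, beside 7.36% over all tested genes. Without WT TNFα n2, 2 of the proteases and inhibitors were higher. The number of matrix genes higher was 3 without untreated WT n2 or n3 or untreated S80A n3, 2 without WT TNFα n1 or S80A TNFα n1 or n2, and 1 without WT TNFα n2, while 4 to 7 were lower in all fits. SPARC, a collagen-binding matrix glycoprotein, had 270, 198 and 205 in treated WT samples and 25.3, 18.9 and 26.8 in treated S80A samples (log2 fold change -3.23, SE 0.24, edgeR adjusted p = 1.71e-06). COL1A1, a chain of type I collagen and the main contributor to the fibroblast markers above, lay at 251, 265 and 280 in WT and 113, 140 and 136 in S80A samples (log2 fold change -1.03, SE 0.12, edgeR adjusted p = 0.00015). LAMA4, a laminin chain of basement membranes, was higher at 422, 585 and 508 beside 288, 296 and 292 (log2 fold change 0.79, SE 0.12, edgeR adjusted p = 0.00144). None of these matrix genes overlapped between the genotypes. SERPINB9, an inhibitor of granzyme B and the 1 lower member of the protease list, had 58, 77 and 66 raw counts in WT and 3, 2 and 1 in S80A samples, a 32.2-fold ratio of WT over S80A (95% counting interval 14.6 to 88.9). CTSZ, a lysosomal cysteine protease, had 139, 165 and 199 in WT and 5, 1 and 2 in S80A samples, a ratio of 60.5 (30.5 to 141).

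Of 23 adhesion receptors 4 were higher (17.4%), beside 2.92% over all tested genes, and 2 without WT TNFα n2 or S80A TNFα n1. NCAM1, a homophilic adhesion molecule of neurons, had 300, 291 and 286 in treated WT samples and 479, 526 and 472 in treated S80A samples (log2 fold change 0.75, SE 0.12, edgeR adjusted p = 0.00151). NCAM2, its paralogue with an undetermined response, was lower, with 23, 15 and 29 raw counts in WT and 2, 0 and 1 in S80A samples, a 21.5-fold ratio of WT over S80A (95% counting interval 7.05 to 107). Of 20 ephrins and EPH receptors 3 were higher (15%), EFNA1 among them. EFNA3, another ephrin ligand, lay at 171, 133 and 147 in WT and 272, 261 and 234 in S80A samples (log2 fold change 0.77, SE 0.14, edgeR adjusted p = 0.00551). EPHA10, a receptor of the family that lacks kinase activity, had 36.3, 58.3 and 59.7 in WT and 180, 113 and 126 in S80A samples (log2 fold change 1.44, SE 0.25, edgeR adjusted p = 0.0034). EFNA3 and EPHA10 were without overlap between genotypes. EPHA10 was also named under a rule that required this. Among 38 semaphorins, plexins, netrins and slits 6 were higher (15.8%), but the number was 3 without WT TNFα n1, 0 without WT TNFα n2, 2 without S80A TNFα n2 and 11 without untreated S80A n2. Of these 6, PLXNA4 reached the low-count filter's minimum of 10 counts, among treated samples, in S80A cells alone. ENO2, the neuronal enolase of glycolysis, was higher at 895, 773 and 743 beside 370, 355 and 340 in WT samples (log2 fold change 1.18, SE 0.12, edgeR adjusted p = 6.82e-05).

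Further genes that were higher in treated S80A cells had varied functions. CROCC, which builds the rootlet of cilia, was at 1069, 1083 and 1090 in treated S80A samples and at 305, 276 and 289 in treated WT samples. The replicates of each genotype lay close together, and the log2 fold change was 1.90 (SE 0.08, edgeR adjusted p = 2.94e-09). CELF2, a splicing and mRNA-binding protein, had 798, 919 and 729 in S80A and 279, 282 and 210 in WT samples (log2 fold change 1.66, SE 0.12, edgeR adjusted p = 2.16e-06). ISM1, a secreted protein, rose from 17.6, 17.8 and 26.4 in WT to 75.0, 92.0 and 70.8 in S80A samples (log2 fold change 1.93, SE 0.23, edgeR adjusted p = 0.000193). RPRM, a p53 target that can hold cells in G2, had 28, 33.6 and 51.9 in WT and 388, 291 and 305 in S80A samples, with a log2 fold change of 3.11 (SE 0.20, edgeR adjusted p = 4.16e-07) and an undetermined response. BCL2, an inhibitor of apoptosis, lay at 240, 277 and 235 in S80A beside 152, 170 and 130 in WT samples (log2 fold change 0.73, SE 0.14, edgeR adjusted p = 0.00601). All of these were also called higher in untreated S80A cells.

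Signalling genes were called on both sides. Those given here are little-response genes except SFRP1, which is undetermined, and AXIN2, which TNFα reduced. MID1, a ubiquitin ligase of microtubules, had 2063, 2211 and 2075 in treated WT samples and 493, 498 and 428 in treated S80A samples (log2 fold change -2.16, SE 0.10, edgeR adjusted p = 1.06e-08). DTX3, a ubiquitin ligase of the Deltex family, had 236, 137 and 187 in WT and 38.0, 27.1 and 18.2 in S80A samples (log2 fold change -2.72, SE 0.29, edgeR adjusted p = 8.79e-05). ITPKB, a kinase of inositol trisphosphate, was lower as well (log2 fold change -1.84, SE 0.21, edgeR adjusted p = 0.00013). Of 35 WNT pathway genes 1 was higher and 4 lower (14.3% called, beside 7.36% over all tested genes). Without WT TNFα n3 or untreated S80A n2, 2 were higher, and without WT TNFα n1 or S80A TNFα n1, 2 were lower. The higher one, RNF43, a ubiquitin ligase that removes WNT receptors, lay at 138, 118 and 86.9 beside 56.0, 45.4 and 45.0 (log2 fold change 1.23, SE 0.24, edgeR adjusted p = 0.00607). SFRP1, a secreted WNT inhibitor, had 46, 74 and 56 raw counts in WT and 4, 7 and 3 in S80A samples, a ratio of 12.1 of WT over S80A (95% counting interval 7.02 to 22.6). Among treated samples SFRP1 reached the low-count filter's minimum of 10 counts in WT cells alone. AXIN2, a brake on β-catenin, was lower at 160, 134 and 149 in S80A beside 247, 230 and 231 in WT samples (log2 fold change -0.67, SE 0.12, edgeR adjusted p = 0.00474). SPRY2, a feedback inhibitor of receptor tyrosine kinases, was higher at 367, 297 and 302 beside 208, 221 and 217 (log2 fold change 0.58, SE 0.11, edgeR adjusted p = 0.00513). None of these genes overlapped between the treated genotypes. For MID1, DTX3 and ITPKB this was a condition of their choice and not a finding.

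**Figure D2:**
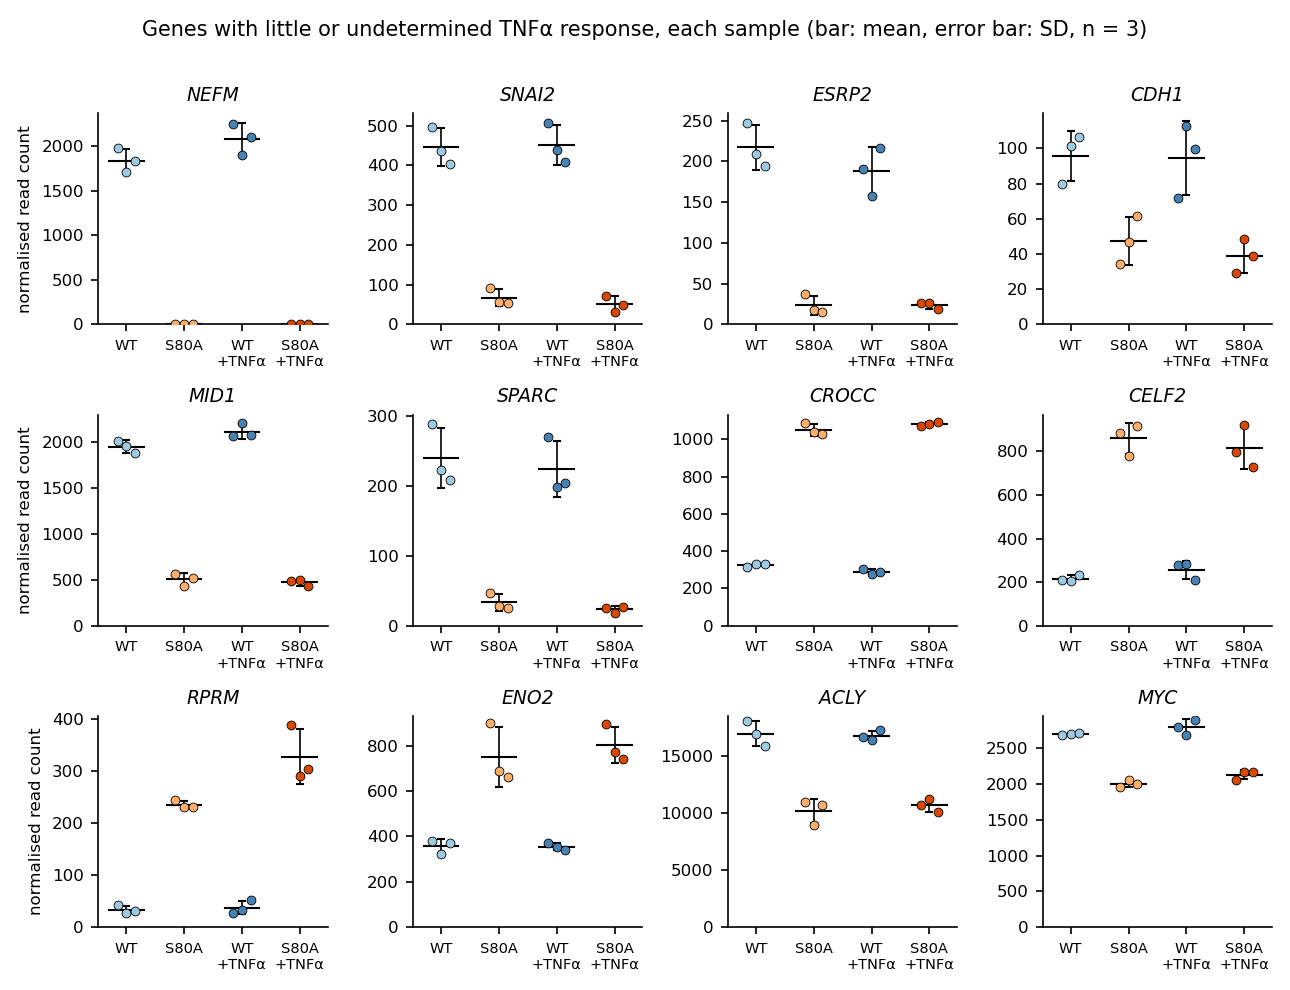
Normalised read counts of 12 genes with little or undetermined response to TNFα in each of the 12 samples (points), with the mean of each group as a line and the SD as an error bar (n = 3). The genotype gap of NEFM, SNAI2, MID1 and CROCC is present with and without TNFα.

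Metabolic genes that differed included several on chromosomes 10 and 17. ACLY, which makes the acetyl-CoA for lipid synthesis and lies on chromosome 17, had 16647, 16376 and 17244 in treated WT samples and 10701, 11260 and 10087 in treated S80A samples (log2 fold change -0.65, SE 0.08, edgeR adjusted p = 0.000354). PFKP, the platelet form of phosphofructokinase on chromosome 10, had 1512, 1353 and 1415 in WT and 892, 737 and 720 in S80A samples (log2 fold change -0.86, SE 0.11, edgeR adjusted p = 0.000278). Both pairs of groups were clearly apart. Of 21 genes of fatty acid synthesis and desaturation 6 were lower (28.6%), ACLY among them, beside 4.44% over all tested genes. The median was -0.16. The number lower was 1 without WT TNFα n1, WT TNFα n2 or S80A TNFα n3, and 3 without S80A TNFα n1. Of the 21 genes, 6 lie on chromosomes 3, 10, 13 and 17, where 16.1% of tested genes were lower. The part of these chromosomes in the count was not tested. MTHFD2, a mitochondrial folate enzyme, lay at 4366, 4276 and 4451 in S80A beside 5925, 5997 and 5228 in WT samples (log2 fold change -0.39, SE 0.08, edgeR adjusted p = 0.00913). SLC7A3, a transporter of cationic amino acids, had 94, 79 and 75 raw counts in WT and 1, 0 and 0 in S80A samples, a ratio of 239 of WT over S80A with a wide 95% counting interval of 42.5 to 9.47e+03.

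Some of the genes called had few counts in one genotype. Of the 1058 genes called, 67 had at most 10 counts in each treated sample of one genotype, 52 of them low in S80A cells and 15 low in WT cells, and 65 of the 67 had an undetermined response. Some of these are low in both genotypes, such as ADAMTSL3 with 10, 10 and 6 counts in WT and 22, 19 and 20 in S80A samples. Its call was lost without any one of WT TNFα n1, n2 or n3 or S80A TNFα n1, n2 or n3, at adjusted p of 0.0655, 0.0842, 0.0763, 0.0757, 0.0828 and 0.0775. Overall 43 of the 67 were called in every fit with 1 sample left out. Low-count genes such as IRF7, SFRP1, SERPINB9 and PLXNA4 reached the filter's minimum of 10 counts, among treated samples, in 1 genotype alone. The counts of their lists rest on such genes in part. Cancer-testis genes are normally confined to the germ line. Of 89 listed members 5 were tested, and 4 of the 5 were lower in S80A cells. Of these 4, MAGEA3, MAGEA6 and MAGEB2 are among the low-count genes and PRAME is not. MAGEA3, MAGEA6 and MAGEB2 had at most 5 counts in each treated S80A sample, so the filter kept them through their WT counts. The share of tested members that was lower therefore does not describe the list. MAGEA6 had 58, 83 and 84 raw counts in treated WT samples and 2, 3 and 5 in treated S80A samples, a ratio of 21.7 of WT over S80A (95% counting interval 11.6 to 45.8). MAGEA6 shares nearly all of its sequence with MAGEA3, which had a ratio of 14.4, so their separate values are uncertain. PRAME lay at 765, 781 and 874 in WT and 439, 429 and 448 in S80A samples (log2 fold change -0.88, SE 0.09, edgeR adjusted p = 4.81e-05). In 8 of the genes no count was seen in any treated S80A sample. GSPT2, a translation release factor, had 29, 27 and 30 counts in WT samples, at least 9.09-fold higher than a floor of 3 counts in each S80A library allows. LXN, a carboxypeptidase inhibitor, had 30, 17 and 29, at least 8.06-fold higher on the same measure.

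Functional lists differed in the share of members called, and most were small. The plot of list members called shows, for each list with a call, the share of tested members higher and lower in treated S80A cells beside the share over all tested genes, 2.92% and 4.44%. Cancer-testis genes are not ranked, since 5 of 89 listed members were tested and some of these passed the filter through WT counts. In the full fit chemokines and cytokines and immediate early genes had the most members higher relative to their size. This order did not hold in every fit: without WT TNFα n2 chemokines and cytokines had 2 of 15 higher, and without S80A TNFα n1 immediate early genes had 4 of 22. Among 78 cytosolic ribosomal proteins 2 were lower, RPL19 and RPL15, and both calls were lost without any one of untreated WT n1, n2 or n3, WT TNFα n1, n2 or n3, untreated S80A n3 or S80A TNFα n1 or n2.

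**Figure D3:**
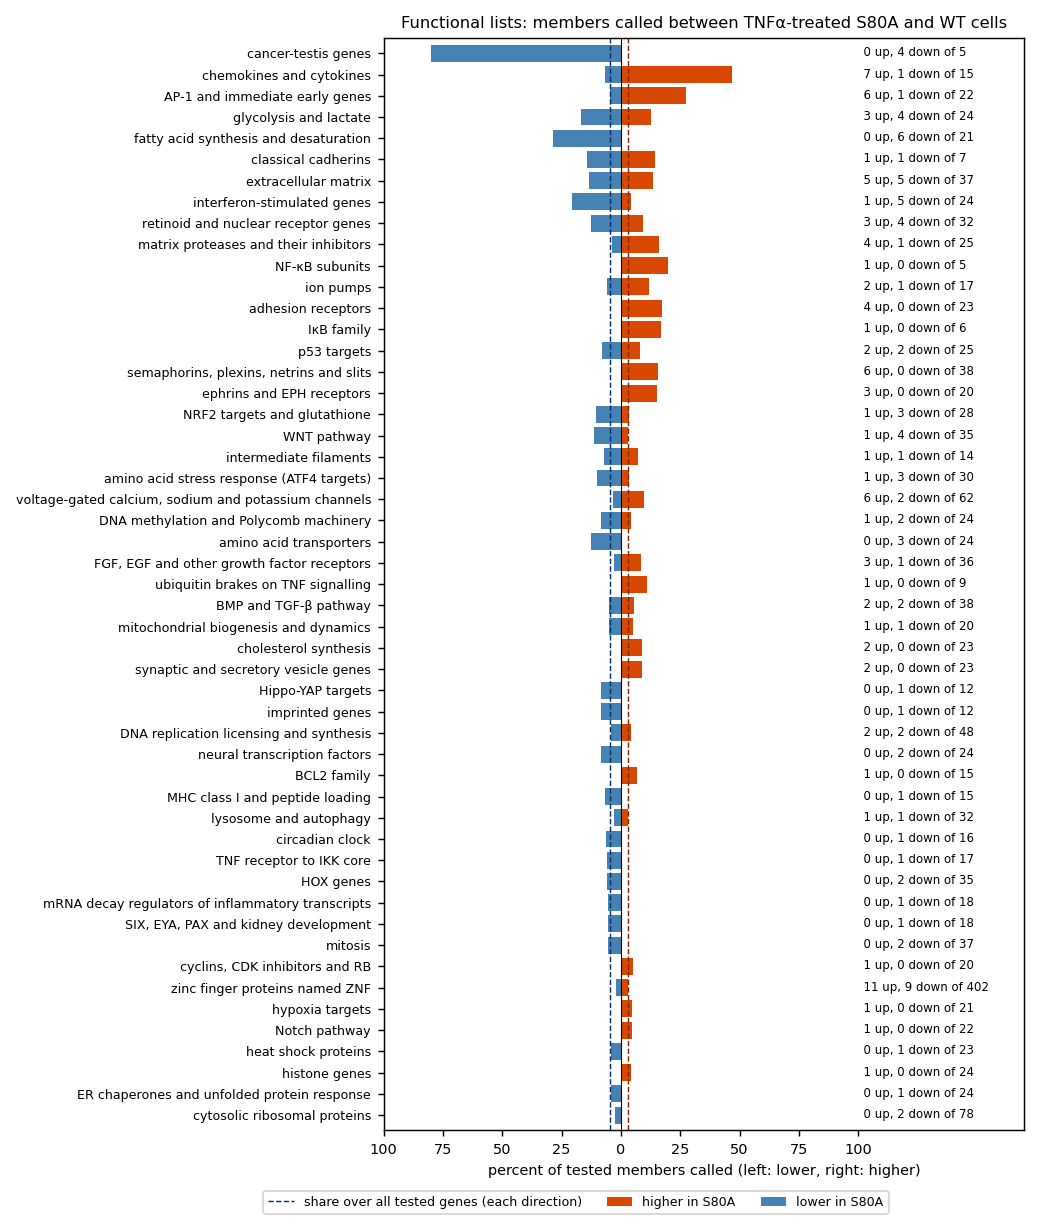
Share of the tested members of each functional list called higher (right) or lower (left) in treated S80A cells than in treated WT cells, for lists with at least 1 call, with counts at the right edge. Dashed lines mark the shares over all 14383 tested genes, and 7 of 15 chemokines and cytokines were higher.

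The genes lower in S80A cells were gathered on particular chromosomes. On chromosome 17, 202 of 820 tested genes (24.6%) were lower and 5 higher, with a median log2 fold change of -0.26 after TNFα and -0.31 without it. On chromosome 10, 101 of 544 (18.6%) were lower and 5 higher, with medians of -0.24 and -0.19. These chromosomes held 303 of the 638 lower calls (47.5%) but 9.48% of the tested genes. Chromosome 13 had a median of -0.16 after TNFα and -0.06 without it, with 22 of 247 genes (8.91%) lower. The medians of all other chromosomes lay between -0.04 and 0.09. The shift was alike in the replicates: relative to the mean of the WT samples of the same treatment, the median over chromosome 17 genes was -0.27, -0.25 and -0.25 in treated S80A samples n1 to n3, and -0.03, -0.02 and 0.06 in treated WT samples.

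In bins of 10 Mb with at least 20 tested genes, 20 of 247 bins had a median at or under -0.2, a threshold chosen after the values were seen. These lay on chromosome 17 (7 of its 9 bins), chromosome 10 (9 of 13) and chromosome 3 (4 of 16), and 12 of the 20 were also at or under -0.2 in untreated cells. They held 7.76% of the tested genes with a position and 46.2% of the lower calls. Of their 1070 genes 12.2% had a positive log2 fold change, and 305 were called, with a median size of 0.43. Other bins of chromosome 3 lay the opposite way. Those at 40 to 50 and 50 to 60 Mb had medians of 0.18 and 0.168, with 10 and 8 genes called higher and 0 lower. DNA copy number was not measured, and its part in this pattern was not tested. Outside the low bins 753 genes were called. Since the bins were picked by their low values, leaving them out removes mostly lower calls by construction. That number was 353 without WT TNFα n1, 299 without WT TNFα n2, 370, 446 and 428 without S80A TNFα n1, n2 and n3, and 1208 without untreated S80A n2. Among the genes described above, SOX9, MAP2K6, AXIN2, COL1A1, CXCL16, ACLY and RPL19, all lower, and RNF43, higher, lie on chromosome 17. On chromosome 10 lie IFIT1, IFIT5 and PFKP, all lower, PLAU, CXCL12 and CELF2, all higher, and NFKB2 and VIM, not called.

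**Figure D4:**
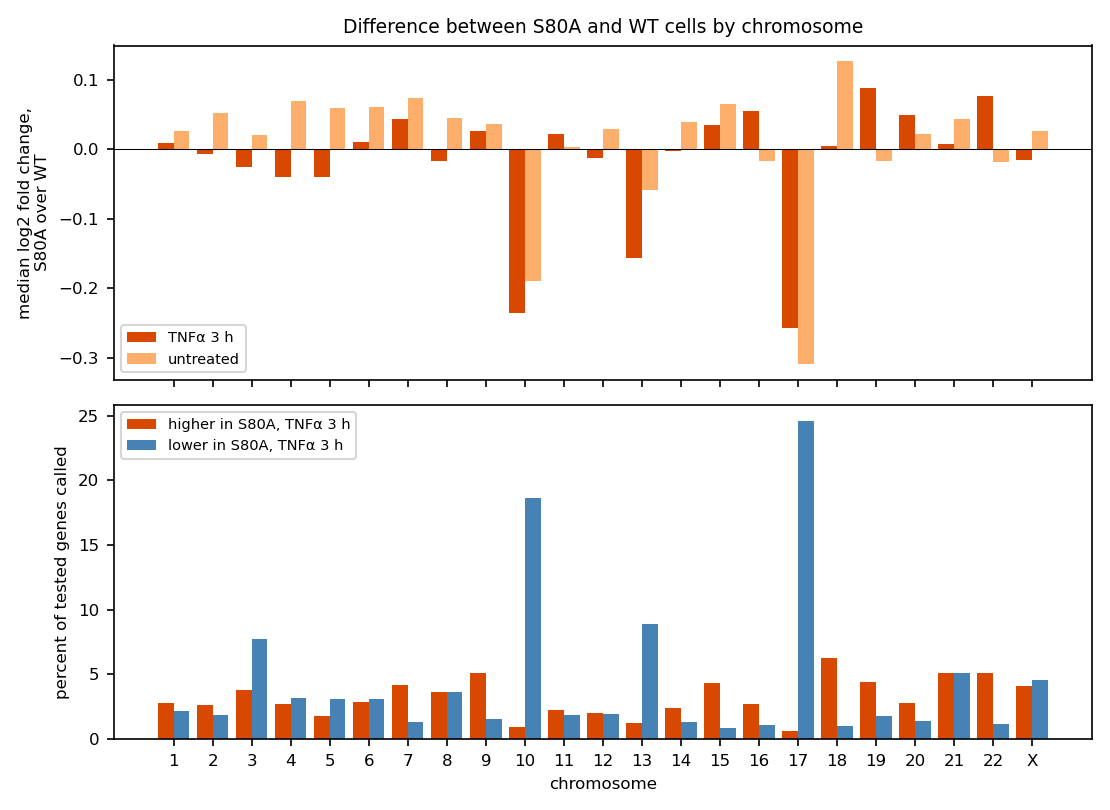
Median log2 fold change of S80A over WT cells by chromosome after TNFα and without it (upper panel), and the percent of tested genes called higher or lower after TNFα (lower panel). Chromosome 17 has the lowest median in both states, -0.26 and -0.31, and chromosome 10 the next lowest.

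The untreated samples, which are not among the 6 compared above, show how much of the difference was there before the cytokine. Without TNFα 900 genes (6.26%) differed between the genotypes. Of the genes called after TNFα, 411 of the 420 higher and 626 of the 638 lower had the same sign in untreated cells. Of the genes higher after TNFα 160 of 420 (38.1%) were also called higher in untreated cells, and of those lower 379 of 638 (59.4%) were also called lower. The total of 539 was 349 and 332 without WT TNFα n1 and n2, 348 without S80A TNFα n1, 282 and 311 without untreated WT n2 and n3, and 341 without untreated S80A n3. Of the 26 induced genes called higher, 3 (11.5%) were also called higher without TNFα and 21 had the same sign there, and whether this share differs from that of other genes was not tested. Several of them, such as IL8, CXCL1 and TNF, have few counts in untreated cells, where a difference is hard to detect at this depth. Of the 13 reduced genes called higher, 9 (69.2%) were called higher without TNFα as well. Across all 14383 genes the Spearman correlation of the treated and untreated genotype differences was 0.528, and across the 312 responsive genes 0.675. Genes are not independent replicates, and whether treated and untreated samples of one number share a culture is not known.

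**Figure D5:**
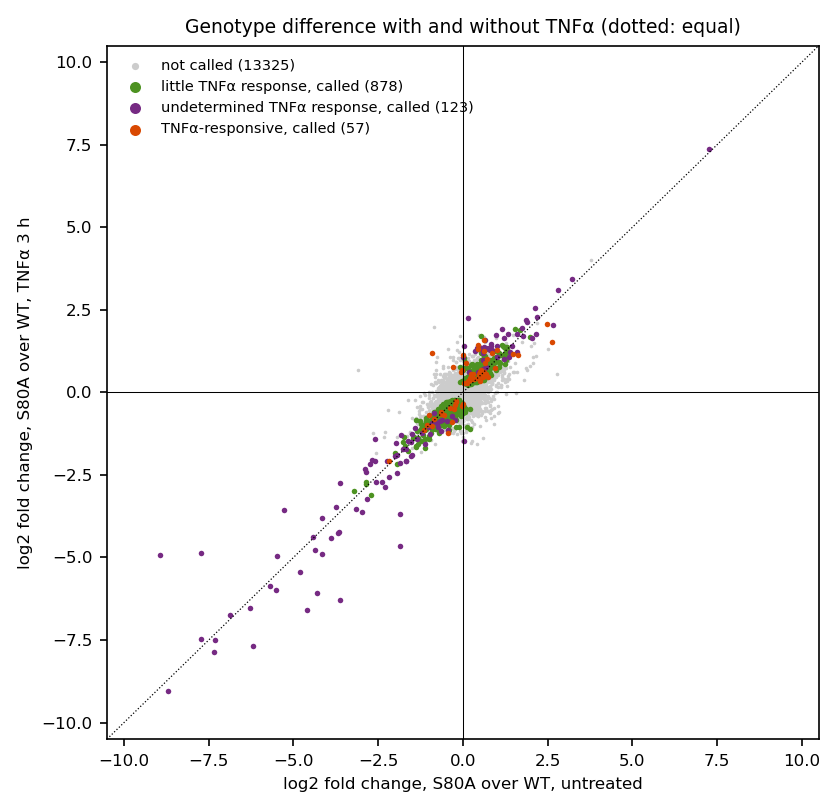
Log2 fold change of S80A over WT cells after TNFα (vertical axis) against the same without TNFα (horizontal axis) for 14383 genes, coloured by response class where called after TNFα. Points near the dotted line differ equally in both states, as CROCC nearly does, at 1.90 with TNFα and 1.69 without it.

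Whether the genotype difference after TNFα differed from that without it was tested as an interaction. No gene passed in edgeR (quasi-likelihood, Benjamini-Hochberg), with 520 genes at an unadjusted p under 0.05, and none passed in DESeq2, with 464. The 520 are fewer than 5% of the genes tested. The unadjusted count was 260 without untreated WT n2, 230, 192 and 1791 without WT TNFα n1, n2 and n3, and 1239 without untreated S80A n1. Values of 3 genes are given as examples. They were picked because they were apart after TNFα and together before it, which raises their interactions by selection. For TNFAIP3 the log2 response was 3.14 in WT and 3.86 in S80A cells, an interaction of 0.72 (SE 0.20, edgeR adjusted p = 0.911). For JUNB the responses were 1.78 and 2.43 (interaction 0.65, SE 0.17, edgeR adjusted p = 0.911), and for EFNA1 they were 1.51 and 2.31 (interaction 0.79, SE 0.23, edgeR adjusted p = 0.911). These responses share the treated samples with the comparison above and are given for size alone. A response that differs between the genotypes was therefore not shown for any single gene, and a p that misses the threshold does not show that the responses are equal.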

How the data were processed

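RNA from 12 samples was sequenced by the authors as single-end 75 bp reads from stranded mRNA libraries, aligned to GRCh38 with HISAT and counted per gene with HTSeq. The values used are the deposited raw counts, 15624878 to 20889577 in total per sample. Lists of the authors' own comparisons (fold changes, p-values and normalised signal of called genes) were deposited too and were not used. Gene names turned into dates, at most 0.233% of counts, were left out. They were found as the rows without a readable count in at least 1 sample. Their readable counts were 0.0% in untreated S80A n1 and S80A TNFα n1 and at least 0.207% in each other sample. Unreadable values add nothing to these sums, so 0.0% does not show that no reads were counted. Counts were scaled by TMM, filtered with filterByExpr (minimum count 10) and fitted in edgeR 4.0.16 (R 4.3.3) by quasi-likelihood with 4 group means over all 12 samples and Benjamini-Hochberg adjustment. Genes were named by a written rule: the responsive genes with the smallest p, the little-response genes with the largest fold change and up to 3 called genes per functional list. The little-response genes named by fold change also had to have treated groups without overlap and a mean level at or above a set minimum. For them the lack of overlap is therefore a condition of their choice and not a finding. Other genes were singled out after their values were seen, namely NFKB2, RELA, REL, CYLD, IER3, TNF, CXCL1, CXCL2, CXCL3, JUN, JUND, SGPP2, MSX1, IRF7, NCAM2, ADAMTSL3, MAGEB2, MARVELD2, GSPT2 and LXN. Members and the 56 lists were chosen with earlier results of these data known. The model was tested on simulated data. Alternatives used DESeq2 1.42.0, other scalings and filters, a replicate block and single samples left out.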

Additional observations from a re-analysis of the deposited data

How the results depend on the processing

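None of the results checked was reversed by an alternative. The 1058 calls became 1361 in DESeq2, 1023 with DESeq2 size factors, 974 with total counts only (464 higher and 510 lower, so 47.6% higher in place of 39.7%), 1152 without a filter, 939 with 10 counts in every sample and 1069 with the 6 treated samples alone. A log2 fold change of at least 1 left 205 genes, 182 outside the low bins, 52 in the functional lists, 18 responsive, 78 little-response, 136 called in both states and 51 of the 128 called genes that follow the naming rule, by its construction. Leaving out each sample gave 434 to 1646 calls, 299 to 1208 outside the low bins, 96 to 250 in the lists (172 with all samples), 26 to 90 responsive, 334 to 1392 little-response and 282 to 724 in both states. The cause was not tested. Responsive calls were 87 in DESeq2 and 45 when a response in either genotype was required. The chromosome 17 median was -0.245 in DESeq2 and with its size factors, -0.231 with total counts and -0.281 to -0.214 with samples left out. The labels give the groups the same replicate numbers, but same-numbered treated samples correlated at 0.051 to 0.251 in their deviations, so they were not taken as paired. With the number as a replicate block there were 1469 calls, 101 of them responsive. The interaction gave 0 calls in all fits, with 940 genes at an unadjusted p under 0.05 without a filter. Bins of 5 Mb, the alternatives for the interaction, lists and chromosomes, and the count outside the low bins were chosen after seeing the data. Of 256 bins of 5 Mb, 24 were low and held 240 lower calls. Some of these lay on chromosome 8 (median -0.227) and chromosome 13 (-0.215 and -0.201), where no bin of 10 Mb was low. Depth limits genes with few counts, which make up most undetermined genes.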
